A study of Mus musculus with 12 samples.

Results

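The genes that bring pyruvate into the mitochondrial matrix and oxidize it were followed in brown adipose tissue (BAT) of mice lacking thioredoxin-interacting protein (Txnip). The set was chosen by gene symbol and held 33 of the 25124 genes in the expression table. It comprised 3 genes for pyruvate import and carboxylation, 5 subunits of the pyruvate dehydrogenase complex, 4 kinases and 3 phosphatase genes that act on that complex, 11 enzymes of the tricarboxylic acid (TCA) cycle, 4 subunits of complex II, and 3 NADP-linked or cytosolic relatives of cycle enzymes. Poly-A RNA from interscapular BAT of male mice aged 10 weeks was sequenced in 4 groups of 3 libraries. These were wild-type (WT) mice and Txnip-/- mice held for 1 week at room temperature (RT, 23 °C), and WT and Txnip-/- mice held for 1 week at thermoneutrality (TN, 30 °C). The Txnip-/- line was kept on a C57B/6J background. The deletion was present in the whole body, so the brown adipocytes and every other cell of the tissue lacked Txnip. The comparisons ask how the absence of Txnip and the surrounding temperature each relate to the expression of these genes.

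Pyruvate made by glycolysis enters mitochondria through a carrier built from Mpc1 and Mpc2. The pyruvate dehydrogenase complex then converts it to acetyl-CoA. Pyruvate dehydrogenase kinases (Pdk) switch the complex off by phosphorylation, and the phosphatases Pdp1 and Pdp2 switch it on again. The TCA cycle oxidizes acetyl-CoA and feeds electrons to the respiratory chain, which in brown adipocytes can be uncoupled by Ucp1 to release heat.

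The libraries held 29.9 to 47.4 reads in units of 1e6. Values are TPM, which scale the reads of a transcript by its length and by the library, and so allow levels of different genes to be compared per length. Txnip fell with the knockout label in both temperatures, from 564, 581 and 694 TPM in RT WT to 24.8, 26.9 and 35.4 TPM in RT Txnip-/-, and from 1238, 1083 and 1072 TPM in TN WT to 11, 14.4 and 10.5 TPM in TN Txnip-/-. The 8 brown adipocyte markers were all expressed, with a summed level in WT of 27980 to 28939 TPM at RT and 20119 to 21765 at TN, and in Txnip-/- of 24613 to 29499 at RT and 17306 to 19027 at TN. Fabp4, a general adipocyte gene, gave the largest part of this sum with a mean of 14830 TPM. Ucp1, the uncoupling protein that defines brown adipocytes, measured 3770 to 4366 TPM at RT and 621 to 1136 at TN in WT, and 2527 to 3900 and 154 to 339 in Txnip-/-. Markers of other cells moved with the groups. The 8 macrophage markers summed to 70.2 to 81.3 TPM at RT and 152 to 270 at TN in WT, and to 118 to 193 and 441 to 619 in Txnip-/-. The 6 fibroblast markers summed to 203 to 258, 345 to 470, 253 to 308 and 825 to 833 TPM in the same order. The 9 skeletal muscle markers summed to 2.58 to 3.12 TPM in RT WT but 21 to 52 TPM in RT Txnip-/-, and at TN to 17.0 TPM in WT replicate 2 and 16.5 TPM in Txnip-/- replicate 2 against 2.78 to 3.82 TPM in the other libraries. None of these lists had a marker at 0 in every library. In such bulk tissue, fewer cells of a type and less RNA per cell cannot be told apart.

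All 33 genes had a mean of at least 1 TPM over the 12 libraries. Together they took 4.05% to 4.24% of the listed TPM at RT and 3.56% to 3.95% at TN in WT, and 3.87% to 3.99% and 3.06% to 3.38% in Txnip-/-. Most enzymes of the pathway were among the abundant transcripts of BAT. Sdha, the flavoprotein subunit of complex II, was the highest with a mean of 1413 TPM, and Idh3b, the beta subunit of the NAD-linked isocitrate dehydrogenase, followed with 1370 TPM. The median expressed gene had a mean of 11 TPM. The kinases and phosphatases spanned a wide range, with means of 899 TPM for Pdk4, 243 for Pdk2, 68.6 for Pdk1, 25.6 for Pdp2, 20.5 for Pdpr, 4.63 for Pdp1 and 1.08 for Pdk3.

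**Figure D1:**
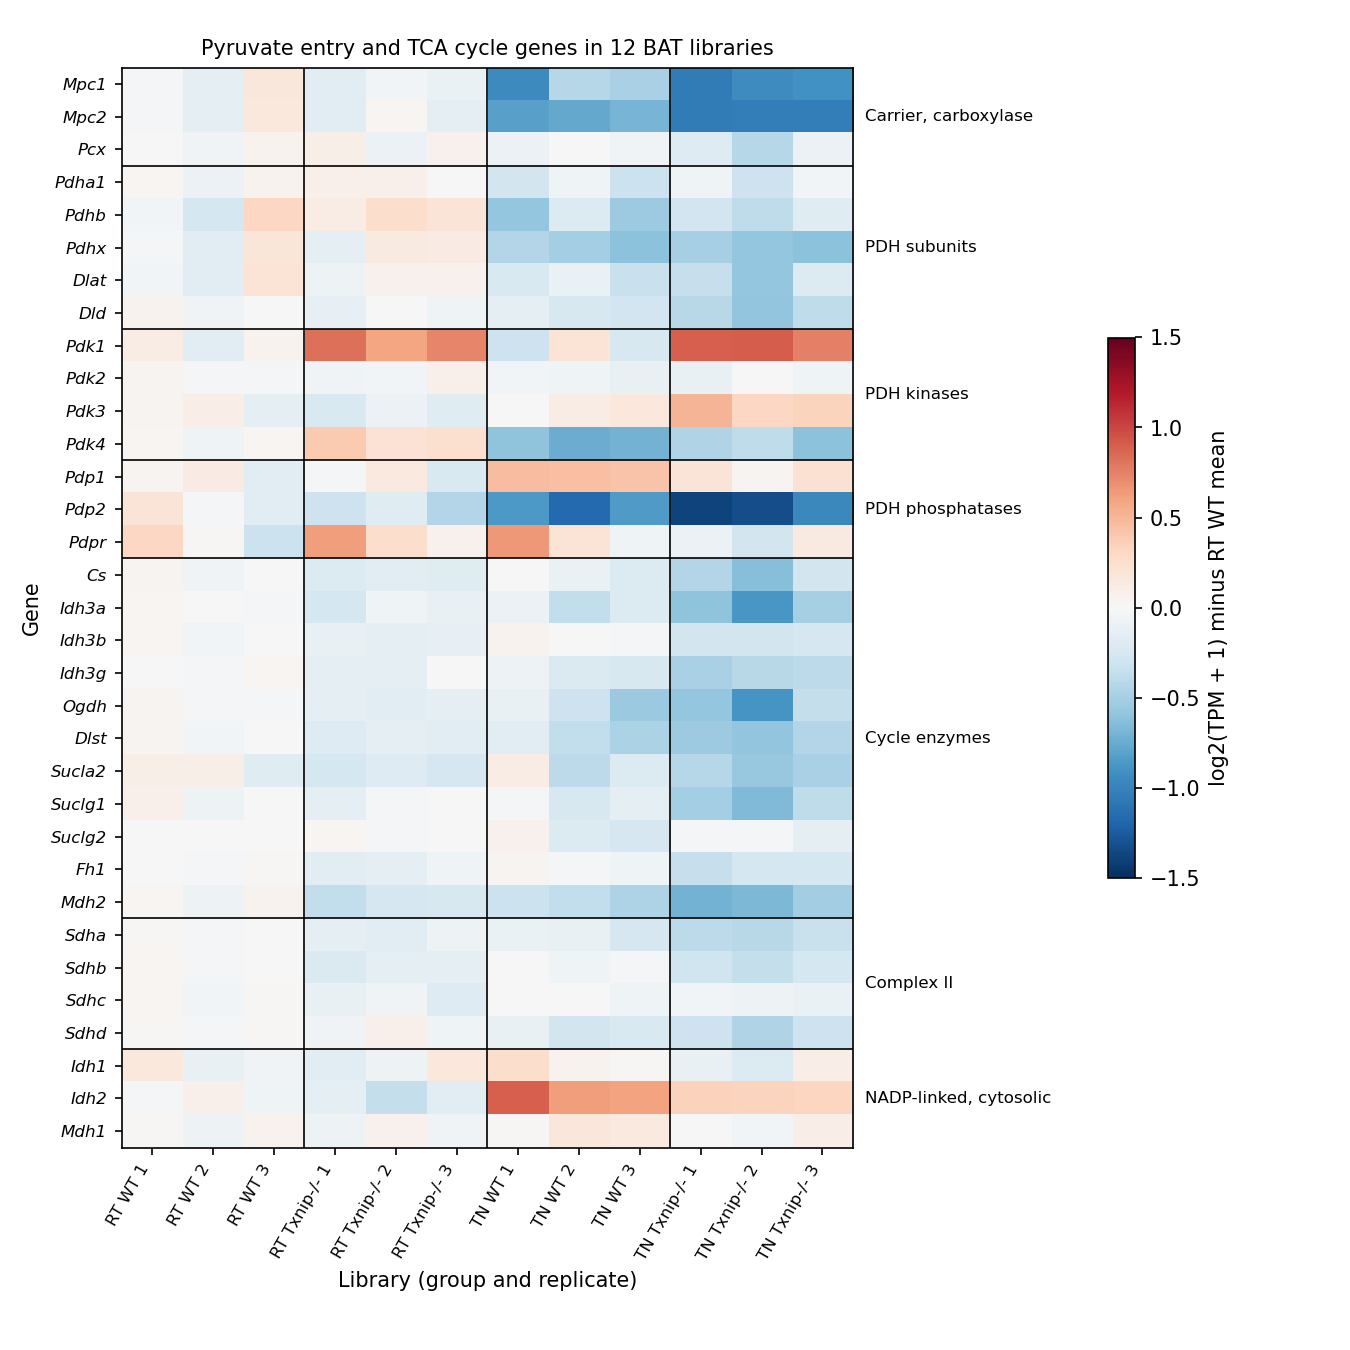
Expression of the 33 genes (rows, grouped by role) in each of the 12 libraries (columns), coloured by log2(TPM + 1) minus the mean of the 3 RT WT libraries. Mpc1, Mpc2, Pdk4 and Pdp2 are blue in all 6 TN libraries, Idh2 is red in all 6, and Pdk1 is red in all 6 Txnip-/- libraries.

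The promoters of 6 genes are shown because their transcripts moved in contrasting ways: the carrier pair Mpc1 and Mpc2 fell together at TN, Pdk1 rose in Txnip-/- mice while Pdk4 fell at TN, and Ogdh and Mdh2 are cycle genes that fell at TN and carry a cAMP response element. Each sequence holds the 250 bases before the RefSeq start site on GRCm38.p6 (mm10), 5′ to 3′ on the strand of the gene. Capitals mark CCAAT boxes (CCAAT on either strand, so ATTGG on the strand shown) and the cAMP response element TGACGTCA, a palindrome.
Mpc1, chr17:8283537-8283786, plus strand: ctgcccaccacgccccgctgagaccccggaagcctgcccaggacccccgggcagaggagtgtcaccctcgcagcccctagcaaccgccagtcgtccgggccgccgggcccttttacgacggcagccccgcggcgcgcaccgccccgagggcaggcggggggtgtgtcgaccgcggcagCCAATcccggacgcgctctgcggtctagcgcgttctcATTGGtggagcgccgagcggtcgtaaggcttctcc
Mpc2, chr1:165461010-165461259, plus strand: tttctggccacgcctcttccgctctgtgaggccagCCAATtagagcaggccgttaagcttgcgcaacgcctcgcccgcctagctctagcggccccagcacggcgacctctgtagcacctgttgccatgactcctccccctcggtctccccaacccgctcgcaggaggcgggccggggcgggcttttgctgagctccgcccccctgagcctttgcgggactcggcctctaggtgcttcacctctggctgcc
Pdk1, chr2:71872974-71873223, plus strand: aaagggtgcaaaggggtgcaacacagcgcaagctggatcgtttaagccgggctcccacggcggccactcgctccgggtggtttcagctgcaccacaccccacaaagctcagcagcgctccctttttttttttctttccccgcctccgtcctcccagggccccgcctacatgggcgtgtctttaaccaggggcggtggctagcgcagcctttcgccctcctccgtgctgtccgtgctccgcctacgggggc
Pdk4, chr6:5496279-5496528, minus strand: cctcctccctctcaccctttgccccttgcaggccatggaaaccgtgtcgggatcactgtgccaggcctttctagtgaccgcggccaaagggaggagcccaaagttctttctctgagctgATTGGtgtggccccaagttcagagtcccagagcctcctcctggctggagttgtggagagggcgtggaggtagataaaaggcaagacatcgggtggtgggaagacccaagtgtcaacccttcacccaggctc
Ogdh, chr11:6291347-6291596, plus strand: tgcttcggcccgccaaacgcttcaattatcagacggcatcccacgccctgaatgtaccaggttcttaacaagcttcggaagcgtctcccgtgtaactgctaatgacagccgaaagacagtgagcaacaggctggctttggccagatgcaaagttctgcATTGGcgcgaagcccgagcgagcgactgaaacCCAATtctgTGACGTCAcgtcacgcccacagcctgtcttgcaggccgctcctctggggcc
Mdh2, chr5:135778399-135778648, plus strand: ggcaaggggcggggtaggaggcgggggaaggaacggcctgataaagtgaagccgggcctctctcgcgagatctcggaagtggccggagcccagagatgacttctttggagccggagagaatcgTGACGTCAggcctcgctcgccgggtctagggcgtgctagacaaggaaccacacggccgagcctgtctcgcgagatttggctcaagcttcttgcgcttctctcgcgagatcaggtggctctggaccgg

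RefSeq promoters were matched for 30 of the 33 genes, and all 30 began within 100 bases of the start of the transcript used for TPM. For 27 of them GENCODE also lists a transcript of the same gene that starts further upstream. CCAAT was found on either strand in 18 of 30 promoters (60%), against 35.9% of all 18389 promoters of the same length. TGACGTCA was found in Pdpr, Ogdh and Mdh2, which is 10.0% of the 30 against 2.01% of all promoters. Pdpr was not called between TN and RT, with log2 fold changes of 0.26 in WT and -0.39 in Txnip-/-. Mpc1, Mpc2 and Pdk4, which fell at TN, had no match. ACGTG, the core that hypoxia-inducible factors and other bHLH proteins can bind, was found in 10 of 30 (33.3%) against 17.7%. Pdk1 was not among these 10. In Ogdh the ACGTG match overlaps the cAMP response element. The NRF1 core GCGCATGCG and the estrogen-related receptor element TNAAGGTCA were in none of the 30, against 1.98% and 1.0% of all promoters. These are matches of letters and no binding was measured.

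To ask what the absence of Txnip changed at TN, Txnip-/- and WT were compared over the 6 TN libraries with limma on log2(TPM + 1). Pdk1 was higher in Txnip-/-, whereas Suclg1 and Idh2 were lower, and these were the 3 of 33 genes called, that is with a log2 fold change beyond 0.32 or -0.32 and an adjusted p under 0.05. Across all 12891 genes tested 8.66% were called, 6.49% higher and 2.17% lower. WT and Txnip-/- libraries did not overlap for 18 of the 33 genes, 16 lower and 2 higher in Txnip-/-. The same held for 31.1% of all tested genes, 13.4% lower and 17.7% higher. Of the 33 genes, 26 had a negative log2 fold change, and their median was -0.25 against 0.01 for all tested genes, of which 51.9% had a positive one. Without a minimum fold change 6 genes passed, the further 3 being Mpc2, Idh3b and Fh1 (fumarase), all lower, in a background of 9.36% of all genes. In the same comparison all 8 macrophage and all 6 fibroblast markers were called higher and 3 of the 8 brown adipocyte markers lower, and of the 2 white adipocyte markers Retn, the gene for resistin, was called higher (log2 fold change 0.88 ± 0.20). Their part in these differences was not tested.

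Among the kinases, Pdk1, known as a target of hypoxia-inducible factor, measured 40.6, 58.4 and 42.8 TPM in TN WT and 95.1, 95.9 and 86.0 TPM in TN Txnip-/-. Every Txnip-/- library was above every WT library. The log2 fold change was 0.97 ± 0.13 (SE, n = 3 per group), a 1.96-fold difference with an adjusted p of 0.00752 (limma). The call held without each library in turn, with an adjusted p between 0.00386 and 0.0349. Pdk4, the kinase induced in fasting and fat oxidation, measured 665, 602 and 617 TPM in TN WT and 741, 777 and 661 TPM in TN Txnip-/-. The groups overlapped by 1 library of each, and the log2 fold change of 0.21 ± 0.08 did not pass (adjusted p = 0.172, limma). Pdk3 is the least abundant kinase in BAT. It measured 0.951, 1.10 and 1.17 TPM in TN WT and 1.76, 1.41 and 1.46 TPM in TN Txnip-/-. These groups did not overlap, yet the log2 fold change of 0.29 ± 0.12 did not pass (adjusted p = 0.160, limma). The remaining kinase, Pdk2, had a log2 fold change of 0.01.

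Of the phosphatase genes, Pdp1 and Pdp2 encode the enzymes that oppose the kinases, and Pdpr encodes a regulatory subunit. All had lower means in TN Txnip-/- and none passed with limma, 1 having an unadjusted p under 0.05, as had 25.6% of all genes in this comparison. Pdp1, the calcium-sensitive phosphatase, measured 5.93, 5.90 and 5.79 TPM in TN WT and 4.78, 4.19 and 4.89 TPM in TN Txnip-/-, without overlap. Its log2 fold change was -0.29 ± 0.08 (adjusted p = 0.0656, limma), and with median centring of each library it was -0.33 and passed (adjusted p = 0.0446). Pdp2 measured 20.3, 16.2 and 20.4 TPM in TN WT and 13.8, 14.3 and 18.7 TPM in TN Txnip-/-, which overlapped, with a log2 fold change of -0.27 ± 0.13. Pdpr, the regulatory subunit of the phosphatase, varied widely within both groups. It measured 29.1, 21.2 and 17.3 TPM in TN WT and 17.1, 14.9 and 20.1 TPM in TN Txnip-/-, with a log2 fold change of -0.34 ± 0.18.

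The pyruvate dehydrogenase subunits did not share one direction, and none was called by limma, 1 having an unadjusted p under 0.05. Pdha1, the catalytic alpha subunit of the first enzyme of the complex, measured 1128, 1315 and 1095 TPM in TN WT and 1314, 1101 and 1328 TPM in TN Txnip-/-. Pdhb, its beta subunit, measured 750, 975 and 767 TPM in TN WT and 915, 858 and 987 TPM in TN Txnip-/-. Both pairs of groups overlapped, and the log2 fold changes were 0.08 ± 0.11 and 0.16 ± 0.11. Dld, the dihydrolipoamide dehydrogenase shared with the 2-oxoglutarate complex, measured 680, 632 and 614 TPM in TN WT and 561, 494 and 572 TPM in TN Txnip-/-. These did not overlap, and the log2 fold change of -0.25 ± 0.08 did not pass (adjusted p = 0.109, limma). Dlat, the acetyltransferase core, and Pdhx, which anchors Dld to that core, had log2 fold changes of -0.16 ± 0.11 and -0.04 ± 0.07.

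For the pyruvate carrier, Mpc1 measured 204, 293 and 281 TPM in TN WT and 191, 206 and 210 TPM in TN Txnip-/-. WT replicate 1 lay among the Txnip-/- libraries and the log2 fold change of -0.34 ± 0.13 did not pass (adjusted p = 0.157, limma), whereas without that library it was -0.50 and passed (adjusted p = 0.0138). Mpc2 measured 477, 492 and 520 TPM in TN WT and 407, 410 and 410 TPM in TN Txnip-/-. The groups did not overlap, and the log2 fold change of -0.28 ± 0.07 had an adjusted p of 0.0376 (limma) but stayed under the fold threshold. Reads of Mpc1 and Pdhb can be shared with near-identical transcripts of other loci, and Mpc1, Pdha1, Pdpr, Idh3b and Mdh1 overlap an exon of a gene on the opposite strand.

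Along the cycle, 10 of 11 enzymes had a negative log2 fold change in TN Txnip-/-, with a range from -0.44 to 0.06 and a median of -0.27, and 1 was called. That gene was Suclg1, the alpha subunit that both succinyl-CoA ligases share. It measured 1295, 1111 and 1180 TPM in TN WT and 921, 826 and 1005 TPM in TN Txnip-/-, with no overlap. The log2 fold change was -0.38 ± 0.10, a 1.30-fold decrease with an adjusted p of 0.0490 (limma). This call was at the threshold: it was lost without any single library of TN WT and without TN Txnip-/- replicate 1 or 2, where the adjusted p ranged from 0.0668 to 0.154. Idh3a, the catalytic subunit of NAD-linked isocitrate dehydrogenase, had the largest change of the group and did not pass. It measured 1107, 910 and 1022 TPM in TN WT and 774, 642 and 834 TPM in TN Txnip-/-, with a log2 fold change of -0.44 ± 0.12 (adjusted p = 0.0565, limma). Without TN Txnip-/- replicate 3 it was -0.52 and passed (adjusted p = 0.0491). Idh3b measured 1520, 1457 and 1430 TPM in TN WT and 1209, 1204 and 1228 TPM in TN Txnip-/-, which did not overlap, with a log2 fold change of -0.27 ± 0.07 and an adjusted p of 0.0476 (limma).

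The other named cycle enzymes were lower on average in TN Txnip-/- without passing. Idh3g, the gamma subunit of the same isocitrate dehydrogenase, had a log2 fold change of -0.26 ± 0.08. Ogdh and Dlst, the first and second components of the 2-oxoglutarate dehydrogenase complex, had -0.28 ± 0.15 and -0.19 ± 0.09, and Mdh2, mitochondrial malate dehydrogenase, had -0.25 ± 0.08. Their adjusted p-values ran from 0.0776 for Idh3g to 0.306 for Ogdh (limma).

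Complex II, which oxidizes succinate and passes electrons to ubiquinone, had 4 negative log2 fold changes of 4 and none called by limma, 2 having an unadjusted p under 0.05. Sdhb, its iron-sulfur subunit, measured 1463, 1396 and 1433 TPM in TN WT and 1190, 1139 and 1220 TPM in TN Txnip-/-. The groups were apart, and the log2 fold change of -0.27 ± 0.07 had an adjusted p of 0.0512 (limma). Sdha measured 1470, 1463 and 1322 TPM in TN WT and 1199, 1185 and 1248 TPM in TN Txnip-/-, also apart, with a log2 fold change of -0.23 ± 0.08. Sdhd, a membrane anchor, had -0.15 ± 0.08.

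Idh2, the NADP-linked mitochondrial isocitrate dehydrogenase, measured 627, 522 and 512 TPM in TN WT and 428, 424 and 423 TPM in TN Txnip-/-. All WT libraries were above all Txnip-/- libraries, and the log2 fold change was -0.37 ± 0.09, a 1.30-fold decrease with an adjusted p of 0.0391 (limma). The call was lost without each of the 6 libraries in turn, with an adjusted p of 0.0545 to 0.119. Mdh1, the cytosolic malate dehydrogenase, measured 605, 670 and 663 TPM in TN WT and 600, 581 and 641 TPM in TN Txnip-/-, which overlapped.

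At RT, the same comparison over 6 other libraries called Pdk1 alone of the 32 genes tested, as Pdk3 had a mean under 1 TPM. Without RT WT replicate 3, 2 genes were called. Across all 11980 genes tested 1.49% were called, 0.76% higher and 0.726% lower. The genotypes did not overlap for 15 of the 32 genes, 13 lower and 2 higher in Txnip-/-, and for 22.6% of all tested genes, 7.58% lower and 15.1% higher. Of the 32 genes, 23 had a negative log2 fold change, with a median of -0.08 against 0.03 for all tested genes. All 6 skeletal muscle markers tested and 3 of the 8 macrophage markers were called higher in RT Txnip-/-, and none of the 6 fibroblast markers. Of the 8 brown adipocyte markers 1 was called lower, Elovl3, a fatty acid elongase (log2 fold change -1.52 ± 0.27, adjusted p = 0.0487, limma). Their part in the RT differences was not tested.

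Pdk1 measured 54.6, 45.0 and 52.4 TPM in RT WT and 90.3, 76.9 and 84.8 TPM in RT Txnip-/-. The groups were apart as at TN, and the log2 fold change was 0.72 ± 0.09, a 1.65-fold difference with an adjusted p of 0.0218 (limma). Without RT WT replicate 1 or 2, or RT Txnip-/- replicate 1 or 3, the adjusted p was 0.0535, 0.102, 0.0611 and 0.0909, and the log2 fold change stayed between 0.64 and 0.78. The call was also lost with no filter on low values, and the smallest log2 fold change of Pdk1 in any alternative was 0.46. Pdk4 measured 1035, 965 and 1032 TPM in RT WT and 1329, 1170 and 1198 TPM in RT Txnip-/-. Every Txnip-/- library was higher, with a log2 fold change of 0.28 ± 0.06 that did not pass (adjusted p = 0.0898, limma). Pdk3 measured 1.01, 1.09 and 0.761 TPM in RT WT and 0.664, 0.827 and 0.711 TPM in RT Txnip-/-, an overlap near the limit of what was tested.

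Among the other regulators at RT, Pdp2 measured 43.0, 37.0 and 33.2 TPM in WT and 30.2, 33 and 27.5 TPM in Txnip-/-. These were just apart, and the log2 fold change of -0.31 ± 0.11 did not pass (adjusted p = 0.227, limma). Pdpr, at 22.8, 18.4 and 14.3 TPM in WT and 28.7, 22 and 19.2 TPM in Txnip-/-, overlapped and had a log2 fold change of 0.32 ± 0.19.

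Along the cycle at RT, 10 of 11 enzymes again had negative log2 fold changes, from -0.29 to 0.01. None was called by limma, and 8 had an unadjusted p under 0.05, as had 16.0% of all genes. Mdh2 had the largest. It measured 1295, 1203 and 1312 TPM in RT WT and 984, 1066 and 1075 TPM in RT Txnip-/-, apart, with a log2 fold change of -0.29 ± 0.06 (adjusted p = 0.0729, limma). Idh3a, Idh3b, Ogdh and Dlst had -0.15 ± 0.06, -0.13 ± 0.05, -0.15 ± 0.05 and -0.17 ± 0.05, and Sdhb had -0.17 ± 0.05. Pdhb had a positive value of 0.19 ± 0.14, with 1090, 930 and 1388 TPM in RT WT and 1214, 1350 and 1278 TPM in RT Txnip-/-. These overlapped and the value did not pass (adjusted p = 0.548, limma). It ran from 0.06 to 0.35 over the alternatives.

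**Figure D2:**
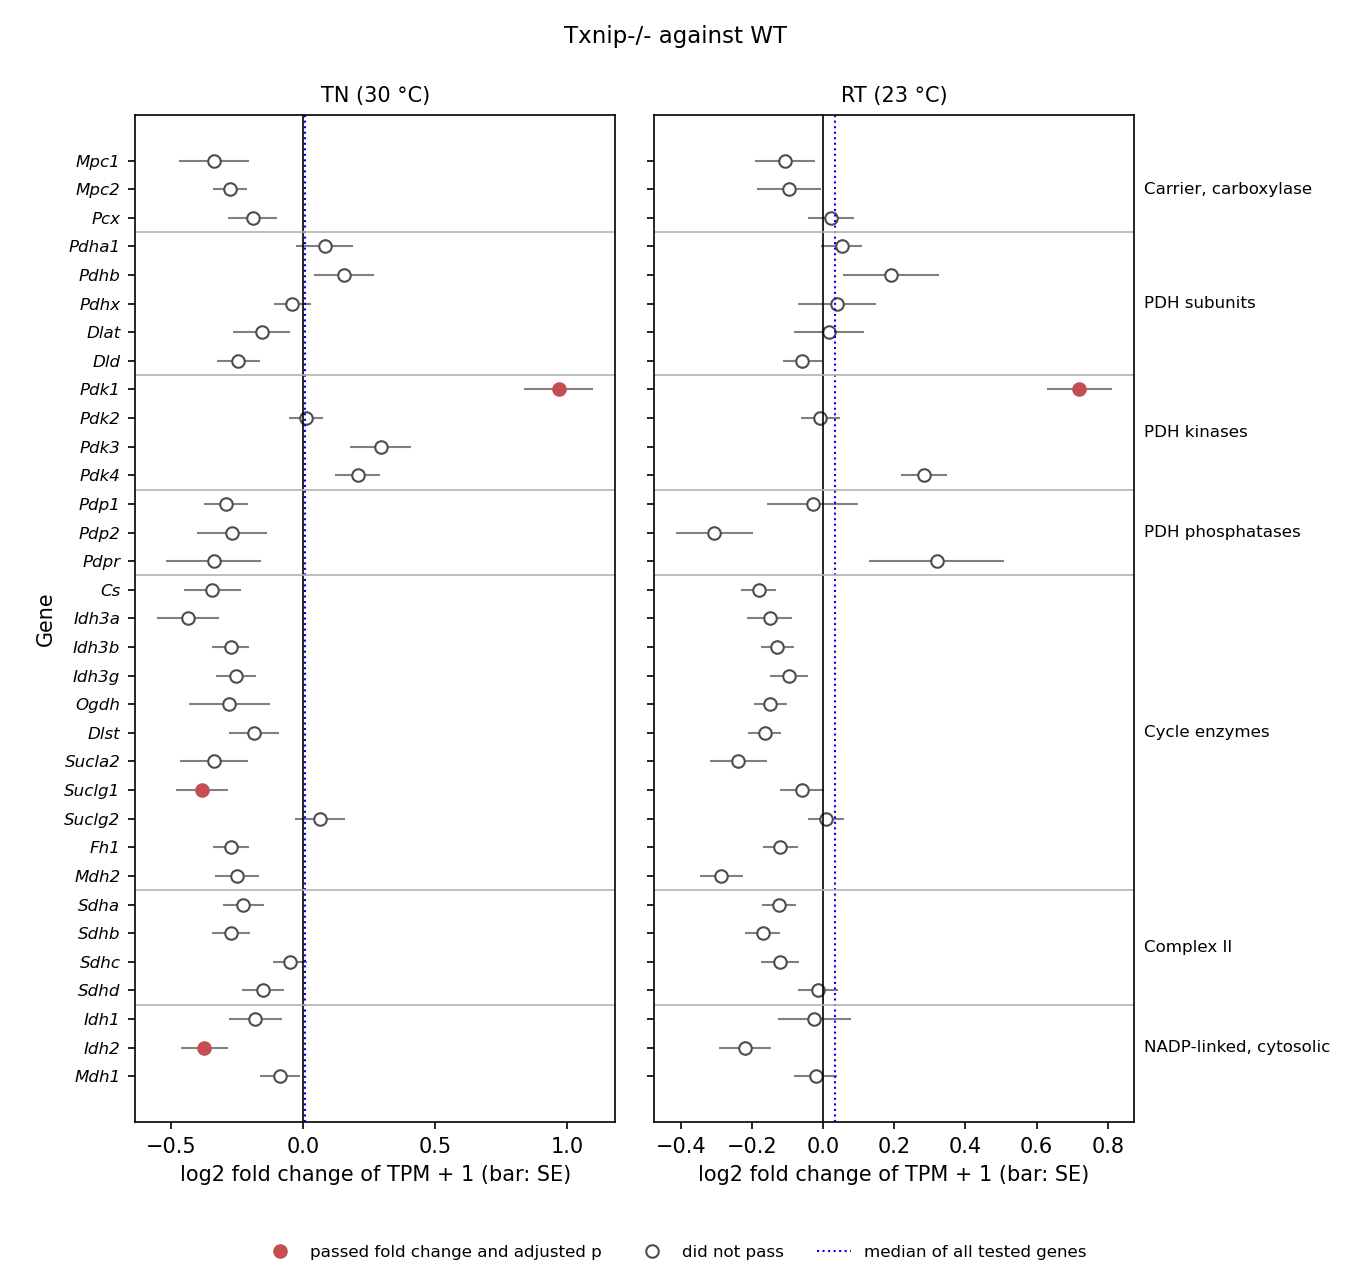
Log2 fold change of TPM + 1 in Txnip-/- against WT for each of the 33 genes, at TN (left) and RT (right), with bars for the SE from limma on 3 libraries per group. Filled points passed the fold and adjusted p thresholds: Pdk1, Suclg1 and Idh2 at TN, and Pdk1 at RT; dotted lines mark the median of all tested genes, 0.01 and 0.03.

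Whether the genotype difference itself differed between temperatures was tested as an interaction over all 12 libraries. None of the 33 genes passed an adjusted p of 0.05 with limma, 3 had an unadjusted p under 0.05 against 12.6% of all genes, and the smallest adjusted p was 0.266, for Pdk3. That gene entered the fit only through its level in TN Txnip-/-. Across all 12486 genes 0.00801% passed, which was Txnip alone. For Pdk1 the interaction was 0.25 ± 0.18, for Suclg1 -0.32 ± 0.12 and for Idh2 -0.15 ± 0.12 on the log2 scale, so the genotype differences of these genes were not shown to differ between RT and TN.

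Temperature had broader effects. In WT mice, 11 of the 33 genes were called between TN and RT, 9 lower and 2 higher at TN, in a background of 37.8% of genes called, 31.4% higher and 6.39% lower. In Txnip-/- mice 17 were called, 15 lower and 2 higher, in a background of 39.2%, of which 30.9% were higher and 8.27% lower. The higher ones there were Idh2 and Pdk3, and Pdk3 passed the filter on low values only through TN Txnip-/-. The median of all genes lay at 0.18 in WT and 0.15 in Txnip-/-, whereas the median of the 33 genes was -0.15 and -0.27. When each library was centred on its median, which shifted log2 fold changes by -0.18 in WT and -0.19 in Txnip-/-, 18 genes (17 lower) and 26 genes (24 lower) were called, and of all genes 3767 in WT (1926 higher) and 4729 in Txnip-/- (2294 higher). The genes called with centring only, all lower, were Pdha1, Dlat, Dld, Idh3a, Idh3g, Sucla2, Sdha and Sdhd in WT, where Pdp1 was lost, and Pcx, Pdha1, Pdpr, Cs, Idh3b, Sucla2, Fh1, Sdha and Sdhb in Txnip-/-. Brown adipocyte markers were called lower at TN for 4 of 8 in WT and 5 of 8 in Txnip-/-, and macrophage markers higher for 7 and 8 of 8. All 6 fibroblast markers were called higher in both genotypes, and all 6 skeletal muscle markers tested were called lower at TN in Txnip-/- but none in WT. Endothelial markers were called higher for 3 of 5 in WT and 5 of 5 in Txnip-/-, and of the 2 white adipocyte markers Lep, the gene for leptin, was called higher in both (log2 fold changes of 3.71 ± 0.51 and 3.56 ± 0.51). Of the lymphocyte markers tested, 1 of 2 in WT and 2 of 2 in Txnip-/- were called higher, and of the 3 Schwann cell markers 0 and 2. These marker counts were made without centring, which would lower every log2 fold change by the shifts given above. The part of these markers was not tested.

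The pyruvate carrier fell at TN in both genotypes. Mpc1 measured 388, 358 and 444 TPM in RT WT and 350, 383 and 368 TPM in RT Txnip-/-, above all TN libraries of the same genotype given earlier. Its log2 fold change was -0.63 ± 0.12 in WT (adjusted p = 0.00172, limma) and -0.86 ± 0.12 in Txnip-/- (adjusted p = 0.000186, limma). Mpc2 measured 828, 763 and 940 TPM in RT WT and 747, 855 and 762 TPM in RT Txnip-/-. The log2 fold change was -0.76 ± 0.08 in WT (adjusted p = 7.02e-05, limma) and -0.94 ± 0.08 in Txnip-/- (adjusted p = 1.08e-05, limma). Both held in every alternative. The summed carrier TPM went from 1241 ± 133 (SD) at RT to 755 ± 65.5 at TN in WT and from 1155 ± 74.4 to 611 ± 11.9 in Txnip-/-, and Mpc2 stayed at 1.96 to 2.15 times Mpc1 in the group means. Pcx, pyruvate carboxylase, which makes oxaloacetate from pyruvate, was not called in either genotype, with -0.26 ± 0.08 in Txnip-/- (adjusted p = 0.0205, limma), but with median centring it had -0.45 there and was called.

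The pyruvate dehydrogenase subunits were all lower on average at TN, and 2 of 5 were called in WT and 4 of 5 in Txnip-/-. Pdhx measured 93.7, 86.0 and 109 TPM in RT WT and 70.4, 66.7 and 62.4 TPM in TN WT. It measured 86.9, 105 and 105 TPM in RT Txnip-/- and 67.7, 63.7 and 62.3 TPM in TN Txnip-/-. No TN library reached an RT library, and the log2 fold changes were -0.52 ± 0.10 (adjusted p = 0.00121, limma) and -0.60 ± 0.10 (adjusted p = 0.000367). Pdhb fell by 0.44 ± 0.14 in WT (adjusted p = 0.0184, limma) and by 0.48 ± 0.14 in Txnip-/- (adjusted p = 0.0118, limma) on the log2 scale. In WT its groups overlapped, and the call was lost without RT WT replicate 3 or TN WT replicate 1 or 3 (adjusted p of 0.0731, 0.0644 and 0.0613, limma) and when only the 6 WT libraries were fitted (adjusted p = 0.0550, limma). Dlat and Dld were called in Txnip-/- with log2 fold changes of -0.39 ± 0.11 and -0.41 ± 0.07, while in WT both had -0.22 and did not pass. With median centring both had -0.40 in WT and were called there too (adjusted p = 0.0190 and 0.00208, limma). Dlat measured 359, 329 and 426 TPM in RT WT and 316, 344 and 294 TPM in TN WT, which overlapped. It measured 349, 385 and 387 TPM in RT Txnip-/- and 291, 247 and 321 TPM in TN Txnip-/-, which did not, and its log2 fold change there was -0.29 and under the fold threshold without TN Txnip-/- replicate 2. Dld measured 778, 723 and 743 TPM in RT WT and 687, 749 and 718 TPM in RT Txnip-/-, above every TN library of the same genotype. Pdha1 was at 1400, 1291 and 1425 TPM in RT WT and 1448, 1449 and 1366 TPM in RT Txnip-/-, and its log2 fold changes of -0.22 ± 0.09 and -0.19 ± 0.09 did not pass, but were called in both genotypes with median centring or upper-quartile normalization.

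Pdk4 fell at TN in both genotypes, with no overlap between any RT and any TN library. The log2 fold change was -0.69 ± 0.07 in WT, a 1.61-fold decrease (adjusted p = 9.58e-05, limma), and -0.76 ± 0.07 in Txnip-/-, a 1.70-fold decrease (adjusted p = 2.32e-05, limma). Pdk1 did not follow it. Its log2 fold change was -0.11 ± 0.12 in WT and 0.14 ± 0.12 in Txnip-/-, and the latter turned to -0.053 with median centring. Pdk3 rose at TN in Txnip-/- (log2 fold change 0.55 ± 0.11, adjusted p = 0.00121, limma) from a level of under 1 TPM, and had 0.09 ± 0.11 in WT. Its mean over the 12 libraries, 1.08 TPM, passed the filter on low values only through TN Txnip-/-, where it was high. The Pdk3 call is therefore a description only. Pdp2 had the largest fall of the 33 genes in WT, with a log2 fold change of -0.96 ± 0.13 (adjusted p = 0.000265, limma), a 1.94-fold decrease, and of -0.92 ± 0.13 in Txnip-/- (adjusted p = 0.000187, limma). Pdp1 moved the other way in WT. It measured 4.20, 4.51 and 3.48 TPM in RT WT, below all TN WT libraries, and rose by a log2 fold change of 0.45 ± 0.11 (adjusted p = 0.00547, limma), but this was 0.26 and no longer passed with median centring (adjusted p = 0.0671). In RT Txnip-/- Pdp1 measured 4.0, 4.59 and 3.32 TPM, which overlapped TN Txnip-/-, and its log2 fold change of 0.18 ± 0.11 did not pass. Pdpr had 0.26 ± 0.21 in WT and -0.39 ± 0.21 in Txnip-/-, neither of which passed, and the latter was -0.58 and called with median centring (adjusted p = 0.0295, limma). Its interaction was -0.66 ± 0.29 (adjusted p = 0.385, limma).

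**Figure D3:**
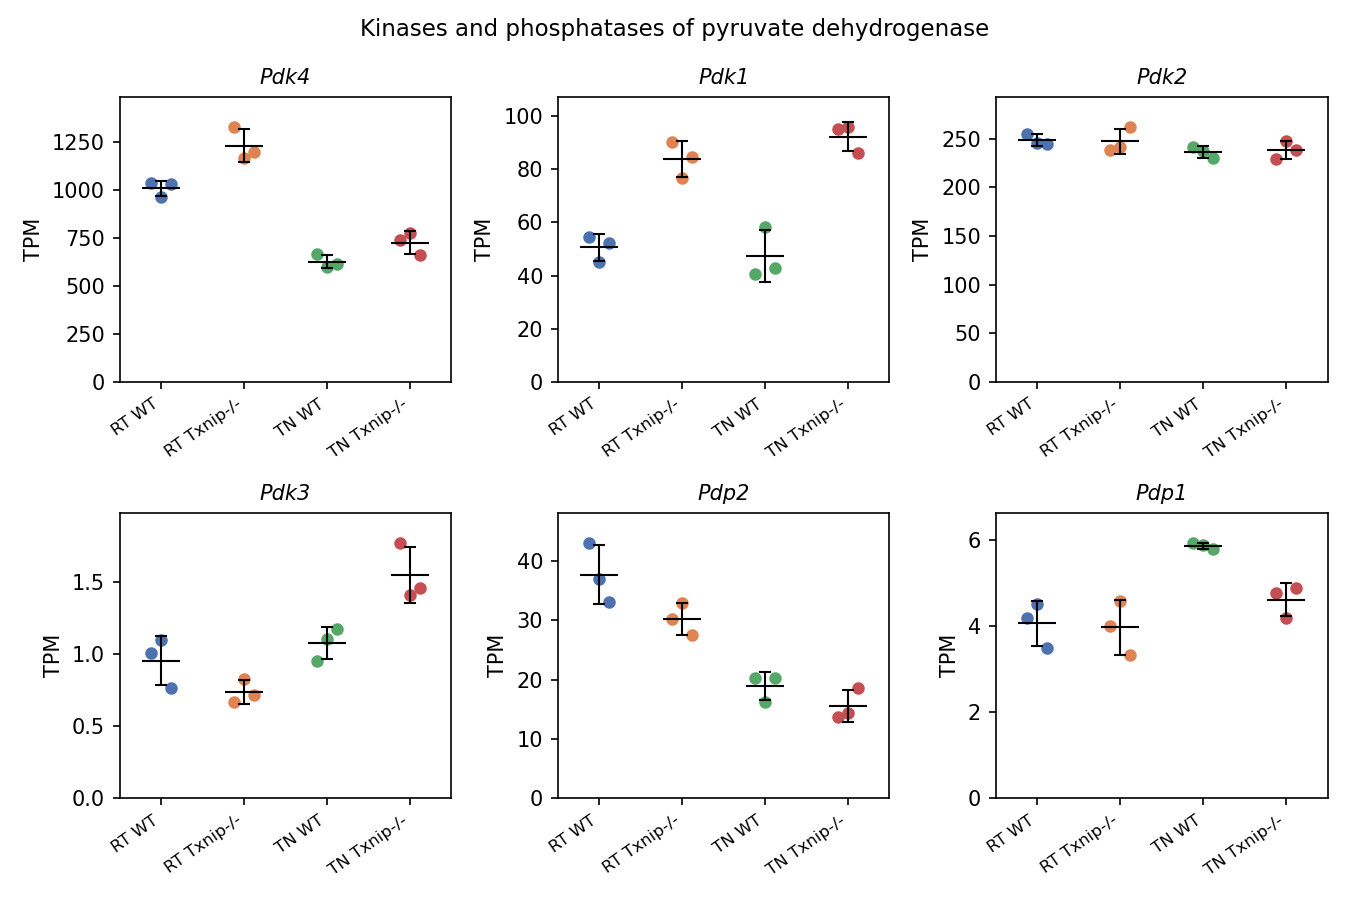
TPM of the kinases Pdk4, Pdk1, Pdk2 and Pdk3 and the phosphatases Pdp2 and Pdp1 in the 4 groups. Points are libraries, and bars the mean and SD of 3; each vertical axis starts at 0 and has its own scale. Pdk4 and Pdp2 are lower in all TN libraries than in any RT library of the same genotype, and Pdk1 is higher in all Txnip-/- libraries than in the WT libraries.

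The composition of the kinases shifted along both axes. In WT, Pdk4 made up 77.1% ± 0.42 (SD, n = 3) of the summed kinase TPM at RT and 68.8% ± 1.7 at TN, and in Txnip-/- 78.7% ± 1.3 and 68.6% ± 1.4. Pdk1 made up 3.86% ± 0.25, 5.19% ± 1.16, 5.36% ± 0.18 and 8.73% ± 0.18 in the same order. The Pdk1 share was at least 8.55% in each TN Txnip-/- library and did not exceed 6.50% in any other library. Pdk2, a widely expressed kinase, took 19.0%, 25.9%, 15.8% and 22.6%. The summed kinase TPM was 1311 ± 47.8 at RT and 913 ± 31.1 at TN in WT, and 1564 ± 86.6 and 1058 ± 67.6 in Txnip-/-. Relative to the summed TPM of Pdp1 and Pdp2 it was 31.7 ± 4.1, 37.0 ± 3.4, 46.1 ± 5.7 and 53.3 ± 10.0. This sum leaves out Pdpr, which had means of 18.5, 22.6, 23.3 and 17.4 TPM in that order, so the ratios would be lower with it. No test was made on these shares and ratios.

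In the cycle, Mdh2 and Dlst were called lower at TN in both genotypes. Mdh2 measured 1019, 984 and 922 TPM in TN WT and 775, 797 and 887 TPM in TN Txnip-/-, below all RT libraries of the same genotype, with log2 fold changes of -0.38 ± 0.07 (adjusted p = 0.00118, limma) and -0.35 ± 0.07 (adjusted p = 0.00161, limma). Dlst, which carries the lipoyl group of the 2-oxoglutarate complex, measured 830, 788 and 806 TPM at RT and 722, 623 and 581 at TN in WT, and 707, 729 and 725 at RT and 554, 537 and 594 at TN in Txnip-/-. RT and TN did not overlap within a genotype, and the log2 fold changes were -0.34 ± 0.07 and -0.36 ± 0.07 (adjusted p = 0.00345 and 0.00203, limma). Without RT WT replicate 1 or TN WT replicate 2 or 3 the WT value of Dlst was -0.32, -0.32 and -0.27 and missed the fold threshold, as did Mdh2 in Txnip-/- without TN Txnip-/- replicate 1 (-0.31).

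Ogdh measured 761, 724 and 733 TPM at RT and 684, 596 and 503 at TN in WT, and 667, 659 and 675 at RT and 493, 401 and 579 at TN in Txnip-/-. The TN libraries were lower and more spread than the RT libraries. The log2 fold change was -0.33 ± 0.13 in WT (adjusted p = 0.0478, limma) and -0.46 ± 0.13 in Txnip-/- (adjusted p = 0.00970, limma). The WT call was lost without any single library other than TN WT replicate 1 and TN Txnip-/- replicates 2 and 3, with an adjusted p of up to 0.183. The Txnip-/- value was -0.32 and under the fold threshold without TN Txnip-/- replicate 2.

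Idh3a, Idh3g and Suclg1 were called at TN in Txnip-/-. In WT they were not, but this rested on the scaling: with median centring Idh3a had -0.40 and Idh3g -0.36 in WT and were called, and with upper-quartile normalization Idh3a, Idh3g and Suclg1 (-0.32) were all called. Idh3a measured 1202, 1171 and 1150 TPM in RT WT and 977, 1119 and 1083 TPM in RT Txnip-/-, and its log2 fold change was -0.50 ± 0.10 in Txnip-/- (adjusted p = 0.00143, limma) and -0.22 ± 0.10 in WT. Suclg1 measured 1377, 1245 and 1315 TPM in RT WT and 1187, 1288 and 1303 TPM in RT Txnip-/-, with -0.46 ± 0.08 in Txnip-/- (adjusted p = 0.000832, limma) and -0.14 ± 0.08 in WT. Idh3g measured 1189, 1170 and 1210 TPM at RT and 1126, 1021 and 1009 at TN in WT, and 1079, 1081 and 1180 at RT and 847, 890 and 905 at TN in Txnip-/-. All its TN libraries were below the RT libraries of the same genotype, with log2 fold changes of -0.18 ± 0.06 in WT and -0.34 ± 0.06 in Txnip-/- (adjusted p = 0.000857, limma), and the latter was -0.30 and -0.31, under the fold threshold, without RT Txnip-/- replicate 3 and TN Txnip-/- replicate 1. The interaction did not pass for any of them, so a difference between genotypes in the temperature response was not shown.

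Idh3b, at 1491, 1422 and 1468 TPM in RT WT and 1352, 1314 and 1340 in RT Txnip-/-, had a log2 fold change of 0.01 ± 0.05 in WT and -0.14 ± 0.05 in Txnip-/-, the latter being -0.33 and called with median centring. In complex II, Sdhd was called in Txnip-/-, and in WT with median centring (-0.39) or upper-quartile normalization (-0.39). Its interaction was -0.14 ± 0.09 (adjusted p = 0.567, limma). It measured 890, 862 and 889 TPM at RT and 816, 726 and 752 at TN in WT, and 846, 931 and 839 at RT and 711, 642 and 710 at TN in Txnip-/-, with log2 fold changes of -0.20 ± 0.07 in WT and -0.34 ± 0.07 in Txnip-/- (adjusted p = 0.00130, limma). RT and TN did not overlap within a genotype, and the Txnip-/- value was -0.29, under the fold threshold, without RT Txnip-/- replicate 2 or TN Txnip-/- replicate 2. Sdha measured 1594, 1551 and 1585 TPM in RT WT and 1435, 1410 and 1493 in RT Txnip-/-, with -0.15 ± 0.06 and -0.26 ± 0.06. Sdhb measured 1497, 1432 and 1463 TPM in RT WT and 1259, 1318 and 1326 in RT Txnip-/-, with -0.03 ± 0.05 and -0.14 ± 0.05. None of these Sdha and Sdhb values met the fold threshold, but Sdha was called lower in both genotypes with median centring or upper-quartile normalization, and Sdhb in Txnip-/- with median centring (-0.33).

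Idh2 rose at TN in both genotypes, against the direction of the cycle. It measured 333, 356 and 322 TPM in RT WT and 305, 263 and 301 TPM in RT Txnip-/-, below every TN library. The log2 fold change was 0.71 ± 0.08 in WT, 1.63-fold higher (adjusted p = 0.000127, limma), and 0.55 ± 0.08 in Txnip-/-, 1.47-fold higher (adjusted p = 0.000256, limma). Idh2 remained called in both genotypes in every alternative, and was 0.53 and 0.37 with median centring. Its ratio to Idh3a, chosen after the values were seen, was 0.287 ± 0.015 (SD) at RT and 0.547 ± 0.039 at TN in WT, and 0.275 ± 0.039 and 0.574 ± 0.079 in Txnip-/-. Mdh1 measured 607, 565 and 622 TPM in RT WT and 569, 624 and 576 TPM in RT Txnip-/-, with log2 fold changes of 0.11 ± 0.07 and 0.04 ± 0.07 that did not pass.

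**Figure D4:**
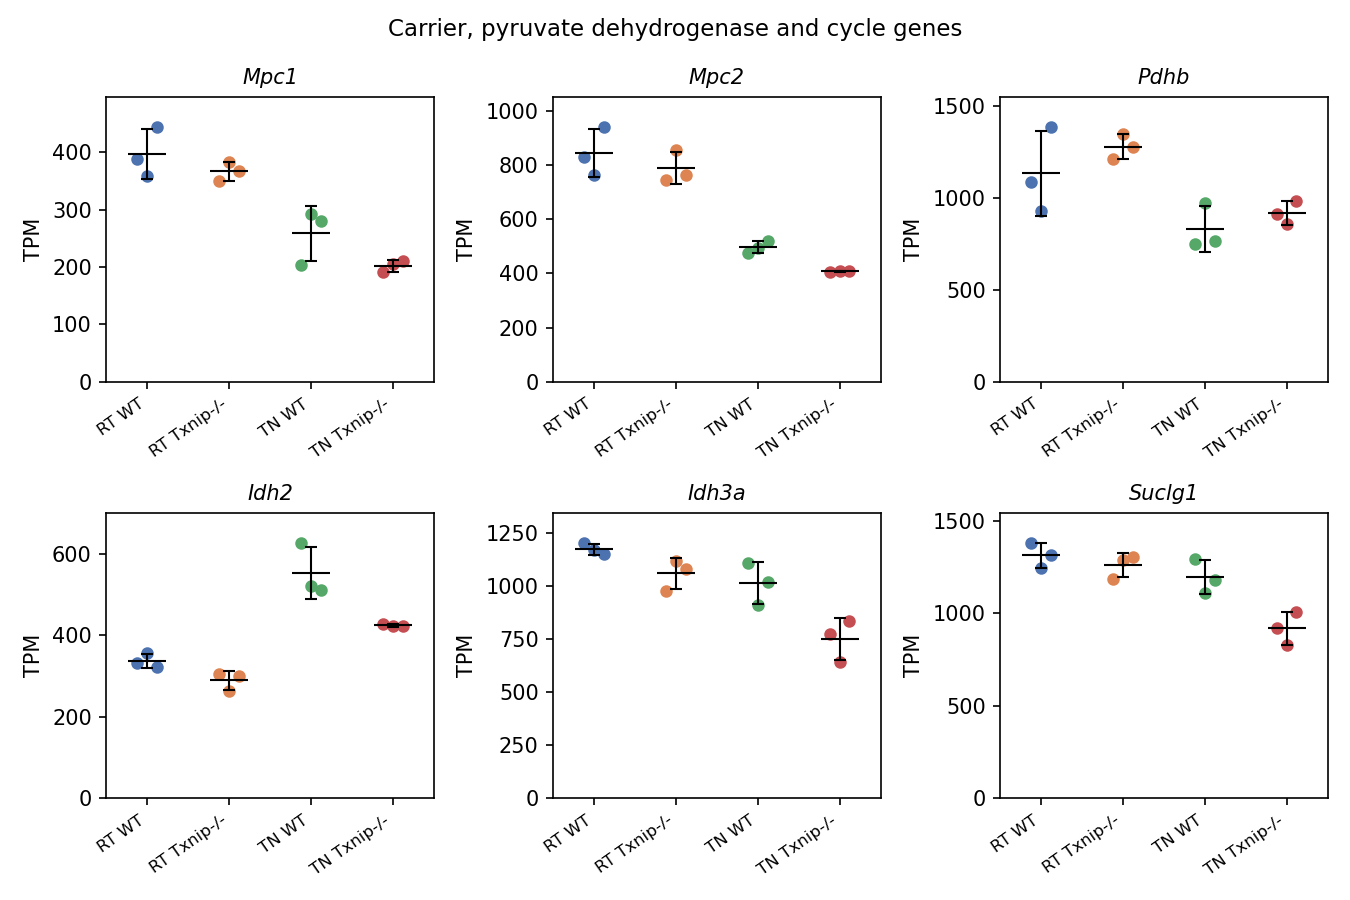
TPM of Mpc1, Mpc2, Pdhb, Idh2, Idh3a and Suclg1 in the 4 groups. Points are libraries, and bars the mean and SD of 3; each vertical axis starts at 0 and has its own scale. Mpc1 and Mpc2 are lower and Idh2 higher in every TN library than in any RT library of the same genotype, and Idh3a and Suclg1 are lowest in TN Txnip-/-.

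**Figure D5:**
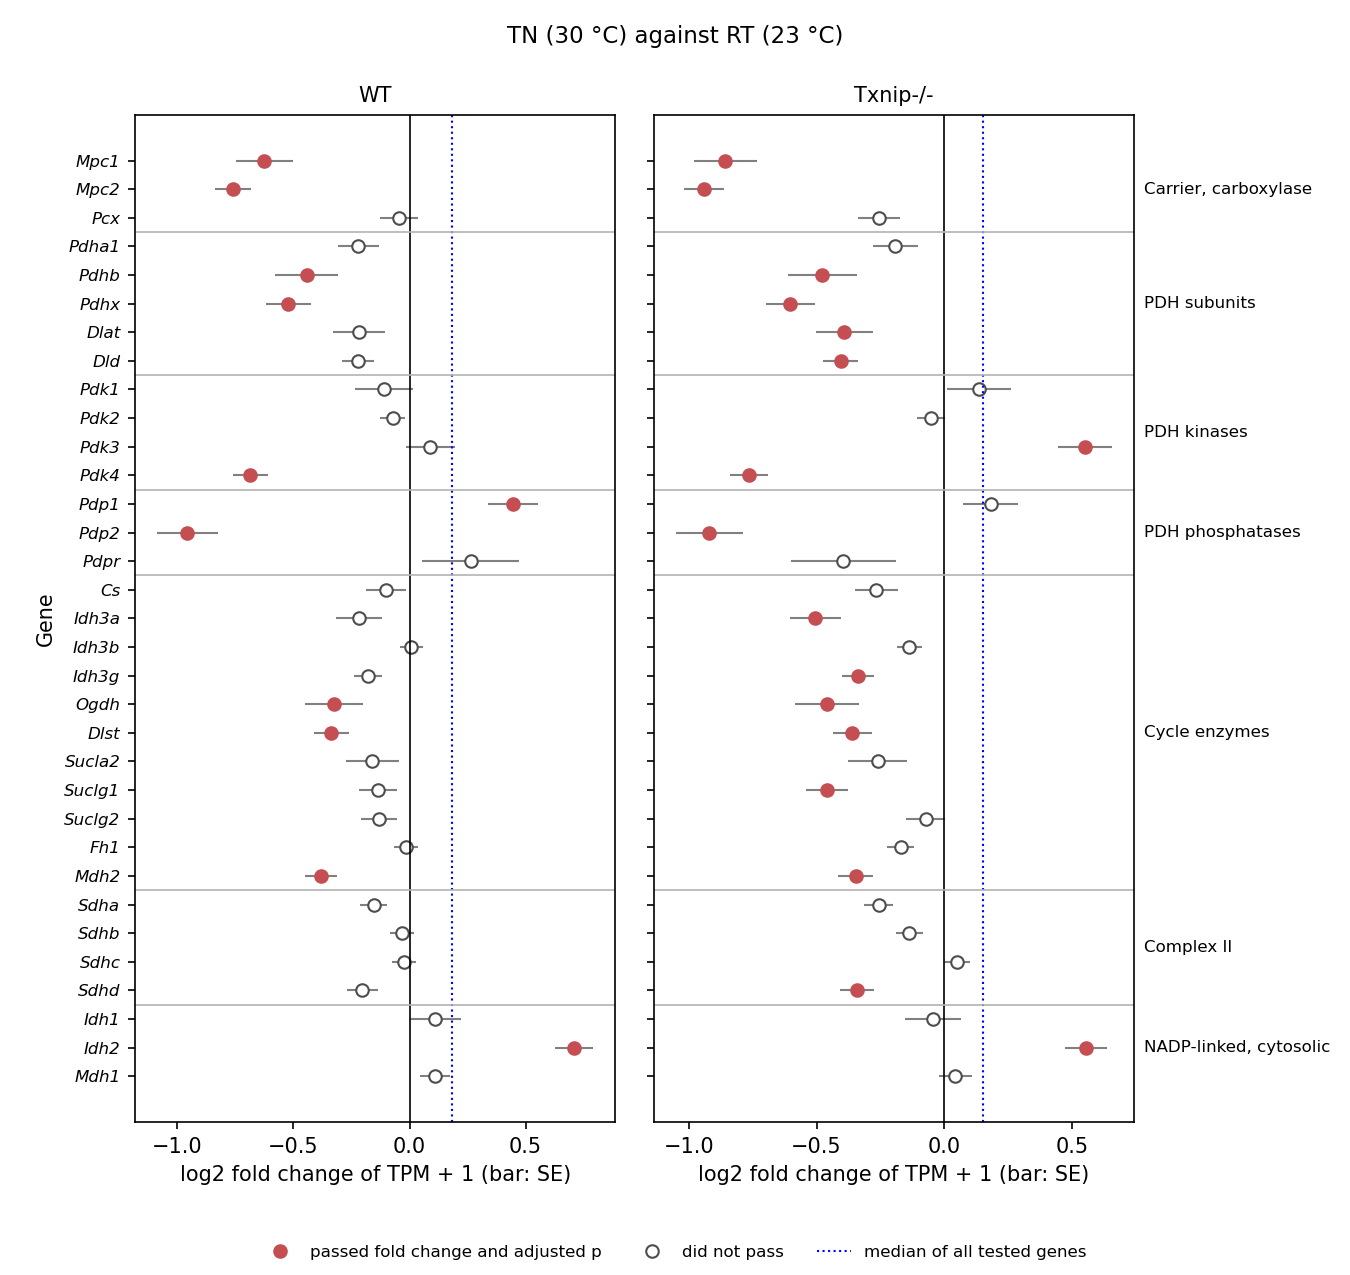
Log2 fold change of TPM + 1 at TN against RT for each of the 33 genes in WT (left) and Txnip-/- (right), with bars for the SE from limma. Filled points passed the fold and adjusted p thresholds (11 genes in WT, 17 in Txnip-/-), and dotted lines mark the median of all tested genes, 0.18 and 0.15. Right of the dotted line lie Pdp1, Pdpr and Idh2 in WT and Pdk3, Pdp1 and Idh2 in Txnip-/-.

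The pyruvate dehydrogenase complex and the cycle were set side by side in each library. The measure was the mean log2(TPM + 1) of the 5 dehydrogenase subunits minus that of the 11 cycle enzymes. The difference was -0.64 ± 0.14 (SD, n = 3) at RT and -0.78 ± 0.15 at TN in WT, and -0.45 ± 0.05 and -0.56 ± 0.05 in Txnip-/-. The Txnip-/- mean was above the WT mean by 0.19 at RT, where the libraries overlapped, and by 0.23 at TN, where the lowest Txnip-/- library (-0.60) was above the highest WT library (-0.63). This measure leaves out the carrier and carboxylase genes. Their mean log2(TPM + 1) was 8.42 in TN WT and 8.15 in TN Txnip-/-, beside 9.51 and 9.24 for the cycle enzymes. At RT it was 8.90 in WT and 8.84 in Txnip-/-, beside 9.69 and 9.54. Over the 15 genes from carrier to phosphatases the median genotype change was -0.16 at TN, and over the 14 of them tested at RT it was 0.02, and over the 18 genes of the cycle, complex II and relatives it was -0.26 at TN and -0.13 at RT. For temperature the medians were -0.22 in WT and -0.39 in Txnip-/- for the 15 genes, and -0.13 and -0.26 for the 18. The temperature and genotype comparisons share libraries, and no test was made over these lists.

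Genes around the pathway were taken from a list of 44, of which 41 were tested. At TN, 7 were called between genotypes, 6 lower in Txnip-/- and 1 higher, in the background of 8.66% of all genes. The lower ones were Pck1 (cytosolic phosphoenolpyruvate carboxykinase, log2 fold change -0.64 ± 0.16), Glud1 (glutamate dehydrogenase, -0.49 ± 0.11), Esrra (the nuclear receptor ERR-alpha, -0.41 ± 0.08), Dhtkd1 (2-oxoadipate dehydrogenase, -0.40 ± 0.09), Ldhd (D-lactate dehydrogenase, -0.39 ± 0.07) and Ldhb (lactate dehydrogenase B, -0.39 ± 0.08). The higher one was Pck2, the mitochondrial carboxykinase, with 0.51 ± 0.11. At RT, Got2 (mitochondrial aspartate aminotransferase) was higher by 0.68 ± 0.12 and Ldhd had -0.35 ± 0.06. Between temperatures 13 were called in WT, 7 higher and 6 lower at TN, and 18 in Txnip-/-, 7 higher and 11 lower, in the backgrounds of 37.8% and 39.2%. With median centring 17 were called in WT, 4 higher and 13 lower, and 25 in Txnip-/-, 3 higher and 22 lower. The 2 carboxykinases moved apart in both genotypes: Pck1 had -1.42 ± 0.16 in WT and -1.89 ± 0.16 in Txnip-/-, and Pck2 had 1.43 ± 0.14 and 1.49 ± 0.14. Slc25a1, the citrate carrier, had -0.81 ± 0.21 and -0.67 ± 0.21, and Me1, cytosolic malic enzyme, had -0.73 ± 0.24 and -0.71 ± 0.24. The aspartate/glutamate carrier Slc25a12 had 0.42 ± 0.09 and 0.66 ± 0.09. Got2 had 0.61 ± 0.13 and 0.34 ± 0.13, both called, and Dhtkd1 had 0.58 ± 0.11 and, not called, 0.28 ± 0.11. With median centring Slc25a12 in WT (0.23) and Got2 in Txnip-/- (0.15) were no longer called.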

How the data were processed

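Interscapular BAT RNA in 12 libraries (4 groups of 3) was analysed. The authors aligned the reads to mm10 with STAR 2.7.5a and counted exons with HOMER 4.11.1, keeping 1 transcript per gene; whether counting used strand is not given in the sources used here. The TPM they deposited were used here. The authors also deposited, per temperature, log2 values of 6 libraries, used as an alternative, together with their DESeq2 log2 fold changes and p-values, which were not read. For 5 of the 33 genes the deposited log2 tables keep another transcript than the TPM table. Transcript lengths are in the deposited tables in bases. Litters are not given per library, so p-values measure the spread between these libraries.

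Genes with a mean of at least 1 TPM in the libraries of a fit were tested on log2(TPM + 1) with limma 3.58.1 (R 4.3.3, trended prior, Benjamini-Hochberg over all tested genes). The log2(TPM + 1) scale understates changes of low genes. Genotypes were compared within each temperature on 6 libraries, and temperature and the interaction on all 12 with 4 group means. Calls needed a fold change above 1.25 or below 0.8 and an adjusted p under 0.05, and the interaction an adjusted p under 0.05. The tests were checked on simulated data. The listed genes sum to 55.4% to 57.6% of the TPM total, and TPM give no counting error.

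Values in every library are given for Pdk4, for genes called in any comparison, and in each role group for the gene with the highest mean and the one with the largest genotype change at TN (25 genes); log2 fold changes under 0.1 in size are given for some only. Surrounding genes are named where called, at most 8 per comparison. Members and lists were chosen with earlier results of these data known. Promoters are from RefSeq (GRCm38.p6); transcripts of 3 genes (Mpc1, Pdhb, Suclg2) match another gene at 95% identity or more over at least 75 bases. Alternatives were upper-quartile scaling, median centring, log2(TPM + 0.1), no filter on low values, the replicate block, no trend, another set of libraries in the fit, no minimum fold, the authors' log2 values, and each library left out. Figures used matplotlib 3.10.9.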

Additional observations from a re-analysis of the deposited data

How the results depend on the processing

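The genotype count at TN, 3 genes, was 6 with no minimum fold change, 5 with all 12 libraries in 1 fit, and 1 each with no filter on low values, with no expression trend and with the authors' log-scale values; with 1 library left out it ran from 1 to 3. At RT, 1 gene was called, 0 with no filter on low values, and 0 to 2 with 1 library left out. The TN against RT count in WT, 11, became 19 with upper-quartile normalization and 18 with median centring, and 8 to 11 with 1 library left out. In Txnip-/-, 17 became 26 with median centring, and 14 to 19 with 1 library left out. The interaction count was 0 throughout. The backgrounds over all genes also moved. Between genotypes at TN 1116 of all genes were called, and 456 to 1005 with 1 library left out. At RT 178 were called, and 159 without RT WT replicate 3 but only 2 without RT WT replicate 2. Same-numbered WT and Txnip-/- libraries had deviations correlated at 0.30, -0.02 and 0.21 at RT and 0.04, 0.02 and -0.04 at TN, so the numbers were not taken as pairs. With the replicate block the counts were 2 at TN, 1 at RT, 10 in WT and 17 in Txnip-/-; Idh3a was then called at TN (adjusted p = 0.0476) and Suclg1 and Idh2 were not (0.0746 and 0.0659).

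Of 32 called fold changes, 20 stayed called in every alternative. Of 1432 alternative values of 85 named fold changes, 5 changed sign: Mdh1 at TN against RT in WT (-0.076 with upper-quartile normalization and -0.072 with median centring), Pdk1 in Txnip-/- (-0.026 and -0.053), and Pdp1 in Txnip-/- (-0.0073 with median centring). Median centring moves every gene alike, by -0.18 in WT and -0.19 in Txnip-/-, which exceeds these fold changes; upper-quartile scaling moved the median of all genes by -0.17 and -0.15. TPM of Pdk3 and Pdp1 are low.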

Other observations

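Of the 10 regulators tested in the surrounding list, 1 was called between genotypes at TN and none at RT (limma, 0 with an unadjusted p under 0.05). Between temperatures 4 were called in WT (3 higher, 1 lower at TN) and 6 in Txnip-/- (3 higher, 3 lower). Of all genes 8.66%, 1.49%, 37.8% and 39.2% were called in these comparisons. With median centring the regulators called between temperatures were 1 higher and 2 lower in WT, and 1 higher and 5 lower in Txnip-/-. At TN against RT, Foxo1, a transcription factor restrained by insulin, fell by 0.90 ± 0.21 (log2, SE) in WT and by 1.30 ± 0.21 in Txnip-/-, and Myc rose by 1.61 ± 0.27 and 1.37 ± 0.27. Ppargc1a, the coactivator of mitochondrial biogenesis, had -0.86 ± 0.36 in WT, not called (adjusted p = 0.0636, limma) but called with median centring (-1.04), and -1.95 ± 0.36 in Txnip-/-, called. Of the 7 lipoylation and complex II assembly genes, none was called by limma between genotypes (2 with an unadjusted p under 0.05 at TN, 0 at RT) or in WT between temperatures (1, against 56.9% of all genes, and with median centring Lipt1 and Sdhaf4 were called), and 2 were called lower at TN in Txnip-/-, Sdhaf3 (-0.39 ± 0.08), an assembly factor of complex II, and Lipt1 (-0.36 ± 0.10), a lipoyltransferase, both named after their values were seen. With median centring all 7 were called lower there. The ratio of Sucla2 to Suclg2, the ATP-forming and GTP-forming beta subunits of succinyl-CoA ligase, was chosen after the values were seen and was 32.7 ± 3.4 (SD) at RT and 32.1 ± 3.0 at TN in WT, and 27.5 ± 1.2 and 24.2 ± 1.9 in Txnip-/-.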
